A study of Sus scrofa with 6 samples.

Results

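Strongly enriched regions that stayed constant over all libraries were described in the back muscle of 2 pig breeds. They are short stretches of the genome that a methylation pull-down recovered far above the background in every one of 6 libraries. Peaks of the 6 deposited lists on chromosomes 1, 10, 11, 12 and 13 were merged where they overlapped by at least 1 bp. A merged region was taken when it was narrower than 2500 bp, had a peak in every library, and had a highest fold enrichment in each library at or above the 80th percentile of that library's own peaks. Fold enrichment is the peak caller's ratio of tags to a background, which can be the stretch around a peak or the whole-genome average. The regions were thus chosen by measured fold enrichment. There were 88582 merged regions, of which 19161 were called in every library and 18703 of those were narrow. The rule was met by 1863, which is 9.96% of the narrow ones. The other 16840 narrow regions are the comparison used below.

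The libraries are methylated DNA immunoprecipitation sequencing (MeDIP-seq) of longissimus dorsi, the long muscle along the back, from female purebred pigs. There were 3 libraries of Yorkshire, a lean Western breed, and 3 of Wannanhua, a Chinese breed, and the labels name no treatment, age or pooling. The labels do not say that the samples of a breed came from different animals, so each p-value covers only how these samples vary, and that variation may be technical. Filtered tags ran from 6728444 in Yorkshire 3 to 17108367 in Wannanhua 2. Yorkshire 3 stood apart by the shortest estimated fragment (97 bp, against 150 to 202 bp) and the highest rate of redundant tags (0.69, against 0.29 to 0.58). Wannanhua 1 was the library with the fewest peaks on the 5 chromosomes, 33496 against 47446 to 61707.

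In mammals methylation sits mostly on cytosines that are followed by guanine. MeDIP uses an antibody that binds methylated cytosine in single-stranded fragments, so a fragment is recovered more easily the more methylated cytosines it carries. A strong MeDIP peak therefore reflects both the methylation level and how densely the sites lie, and many mammalian repeats are dense in such sites and heavily methylated. Muscle tissue holds fibres, satellite cells, vessels, connective tissue and fat. DNA of the whole tissue was used, so methylation in more cells and more methylated sites per cell cannot be told apart, and no marker of these cell types could be read from the lists. The build of the coordinates is not given in the sources used here. On 5 of the 5 chromosomes the lists reach beyond the final gene in RefSeq's table for Sscrofa11.1 (315 against 274 Mb on chromosome 1), so no region was placed in a gene, exon or intron. All positions are as the lists give them.

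The rule set the fold of these regions, so the following values describe the choice and carry no test. The threshold was a fold of 21.2, 17.1 and 31.99 in Yorkshire 1, 2 and 3, and of 19.6, 15.5 and 15.4 in Wannanhua 1, 2 and 3. In the chosen regions the median fold was 30.2, 24.7 and 44.2 in the Yorkshire libraries and 24.8, 22.0 and 20.9 in the Wannanhua libraries. In the other narrow regions it was 17.5, 15.1 and 25.2, and 15.7, 13.5 and 13.4. The threshold cut through a continuum, since 2207 further narrow regions reached it in 5 of the 6 libraries and 6205 in none. The values step rather than flow: 268 of the 1863 lay exactly on the threshold of Wannanhua 1, and 1514 lay strictly above it in all 6 libraries. Just inside, chromosome 1 from 5535167 to 5535735 had exactly the threshold fold in Yorkshire 1 (21.23) and Wannanhua 1 (19.57). Just outside, chromosome 1 from 181848998 to 181849541 missed it in Yorkshire 1 with a fold of 21.21.

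The fold of these regions often came in whole steps, least often in Yorkshire 3. A fold was called whole when it lay within 0.02 of a step of a multiple of the effective genome size divided by filtered tags and fragment length, a window that covers 4% of all values. The step was adjusted by up to 0.5% to give the most whole folds in the 1863 regions, which favours them over the others. In the 3 Wannanhua libraries 70.2%, 71.6% and 68.8% of the 1863 regions had such a fold, against 36.8%, 35.9% and 34.9% of the other narrow regions. In Yorkshire 1, 2 and 3 the shares were 50.5%, 68.5% and 29.6%, against 27.7%, 32.8% and 23.7%. A whole fold is the value that results when a tag depth is divided by the average over the whole genome, and not by a raised value in the 10000 bp around the peak. The rule used the fold, so these shares too are a description.

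The threshold was also read in a library that had no part in finding the regions. The rule was applied to 5 libraries, with their peaks merged without the sixth, and the regions found were read in the library left out. Left out in turn, Yorkshire 1, 2 and 3 reached their own threshold in 1863 of 2108 regions (88.4%), 1863 of 2016 (92.4%) and 1863 of 2419 (77.0%). Wannanhua 1, 2 and 3 did so in 1863 of 2929 (63.6%), 1863 of 2083 (89.4%) and 1862 of 2233 (83.4%). The background is the share among all narrow regions with a peak in the other 5 libraries, which was 36.9%, 42.5% and 30.1% in Yorkshire 1, 2 and 3 and 23.4%, 40.5% and 36.5% in Wannanhua 1, 2 and 3. In every library the share among regions found elsewhere was more than 2 times the background. A region that reaches the threshold in the left-out library in effect meets the full rule, so the counts return to 1863 or 1862. These shares describe how many further regions 5 libraries alone give, and are no separate support for the 1863. The lowest share belonged to Wannanhua 1, where 2580 of the 2929 regions had a peak and 72.2% of those reached the threshold. Median fold in the left-out library was 1.31 to 1.60 times that of all narrow regions called in the other 5.

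**Figure D1:**
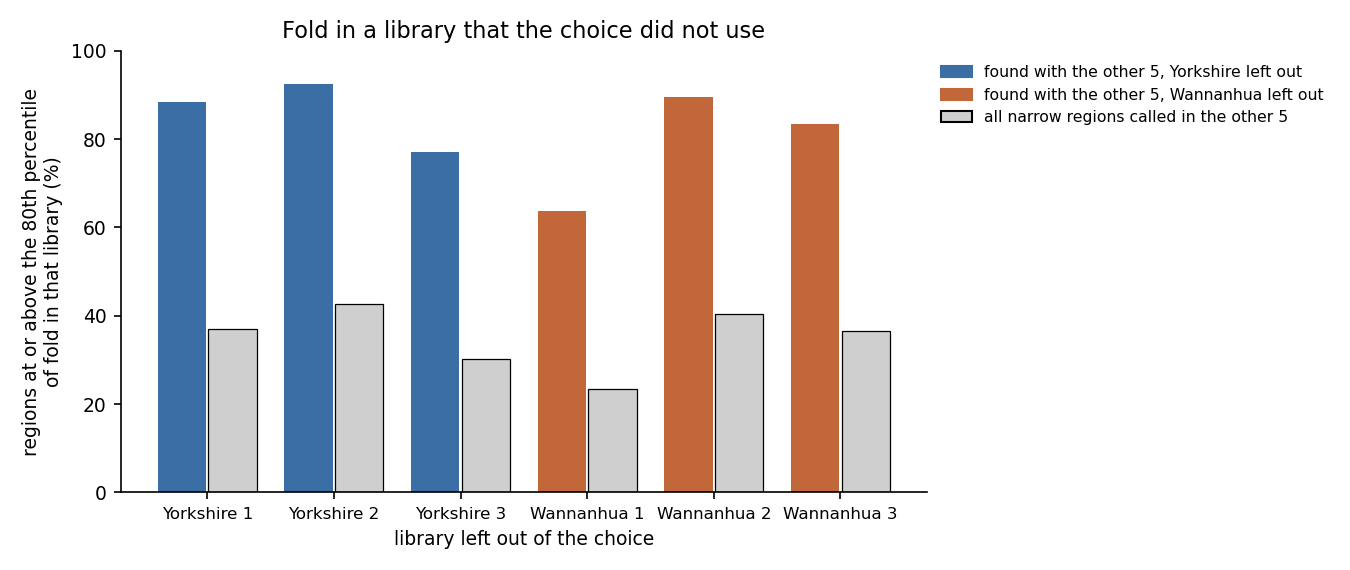
Share of regions (y axis, percent) whose fold is at or above the 80th percentile in a library left out of the choice (x axis). Coloured bars are regions found with the other 5 libraries, from 63.6% in Wannanhua 1 to 92.4% in Yorkshire 2, and grey bars are all narrow regions called in those 5, from 23.4% to 42.5%.

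From breed to breed the shares were lower, with all 3 libraries of the other breed required. Regions that reach the threshold in all 6 libraries are in effect the 1863 again, so these shares too are a description. With the 3 Yorkshire libraries alone 4959 regions met the rule, and 1862 of them (37.5%) reached the threshold in all 3 Wannanhua libraries, where 10.6% of narrow regions called in Yorkshire did. With the 3 Wannanhua libraries alone 3705 regions met it, and 1863 of them (50.3%) did so in all 3 Yorkshire libraries, against a background of 15.7%. Read library by library, the regions found in Yorkshire reached the threshold in 52.6%, 77.3% and 69.0% of cases in Wannanhua 1, 2 and 3. Those found in Wannanhua reached it in 72.6%, 82.6% and 62.9% in Yorkshire 1, 2 and 3. The lowest value in each direction fell in the shallowest library of the breed tested, with 7413391 and 6728444 filtered tags. The part of depth in these shares was not tested.

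The regions were compact, and each was nearly always a single peak. Merged width had a median of 700 bp, with quartiles of 601 and 813 bp and a range of 378 to 1589 bp, so that the limit of 2500 bp removed none that otherwise met the rule. The other narrow regions had a median of 776 bp and a longer tail: 25.5% were 1000 bp or wider, against 96 of the 1863 (5.15%). In 1823 of the 1863 (97.9%) every library had exactly 1 peak, against 90.8% of the other narrow regions. A single library called a shorter stretch than the merged region. Medians of called length were 465, 520 and 342 bp for Yorkshire 1, 2 and 3 and 455, 567 and 593 bp for Wannanhua 1, 2 and 3. The order of these widths followed the estimated fragment length in 5 of the 6 libraries, and only Wannanhua 1, with 179 bp fragments, lay out of that order. Called length averaged 442 ± 91.1 bp in Yorkshire and 538 ± 73.3 bp in Wannanhua (SD, n = 3; two-sided exact permutation p = 0.3, adjusted p 0.5 over 5 measures), and the breeds overlapped. Without Yorkshire 3 the difference went from 96 to 45.8 bp, and without Wannanhua 1 it went to 138 bp. With 3 against 3 no exact p can be below 0.1.

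The narrowest region was chromosome 11 from 37202701 to 37203078 (378 bp). It held 24, 24 and 22 tags in Yorkshire 1, 2 and 3 and 23, 28 and 22 in Wannanhua 1, 2 and 3, and its summits lay within 3 bp of each other. Chromosome 1 from 149098074 to 149098460 (387 bp) and from 65761890 to 65762277 (388 bp) followed. The widest was chromosome 13 from 38721621 to 38723209 (1589 bp), where Yorkshire 3 called only 341 bp and Wannanhua 3 called 1471 bp. Of similar width were chromosome 13 from 161124407 to 161125928 (1522 bp) and chromosome 1 from 12963182 to 12964637 (1456 bp). Called length again differed widely between libraries, from 367 to 1465 bp and from 247 to 1249 bp.

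In most of these regions the 6 libraries placed the top of the peak close together. The summit is the position of greatest tag depth in a peak, and the rule did not use it. The span from the first to the last of the 6 summits had a median of 57 bp (quartiles 40 and 79 bp) in the 1863 regions and of 80 bp (52 and 125 bp) in the other narrow regions. All 6 summits fell within 100 bp in 1642 of the 1863 (88.1%), against 64.3% of the others. A library's own summit lay at a median of 9, 8.5 and 17.5 bp from the median summit in Yorkshire 1, 2 and 3, and at 11.5, 9 and 9.5 bp in Wannanhua 1, 2 and 3. Yorkshire 3, the library with the shortest fragments, was the least close, with 86.7% of its summits within 50 bp of the median and 92.5% to 96.8% in the other 5 libraries. The breeds overlapped, at 11.7 ± 5.06 bp in Yorkshire and 10 ± 1.32 bp in Wannanhua (SD, n = 3; two-sided exact permutation p = 1, adjusted p 1). Only 2 of the 1863 had no base that lay in a called peak of all 6 libraries, against 309 of the 16840 others. On the median, 45.6% of a region's width lay within the called stretch of every library, which is 315 bp.

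Tag counts were modest, so the counting error of a single region was large. Medians were 27, 33 and 22 tags per region in Yorkshire 1, 2 and 3 and 16, 35 and 32 in Wannanhua 1, 2 and 3, and a count of 16 carries a counting error of 25%. The fewest tags of any region were 13, 17 and 9 in the Yorkshire libraries and 10, 21 and 19 in the Wannanhua libraries. Per 1000000 filtered tags (CPM) the medians were 2.55, 2.16 and 3.27 in Yorkshire and 2.16, 2.05 and 2.08 in Wannanhua. All Yorkshire values lay above all Wannanhua values, though Yorkshire 2 (2.160) and Wannanhua 1 (2.158) were nearly equal. The means were 2.66 ± 0.56 and 2.10 ± 0.06 (SD, n = 3; two-sided exact permutation p = 0.1, the smallest possible, adjusted p 0.5), and without Yorkshire 3 the difference fell from 0.564 to 0.259. In the other narrow regions CPM showed the same order of breeds, with medians of 2.17, 1.96 and 2.38 against 1.89, 1.87 and 1.89. Per kb of called peak the 1863 regions had a mean of 6.28 ± 2.77 CPM in Yorkshire and 3.90 ± 0.66 in Wannanhua (SD, n = 3; two-sided exact permutation p = 0.2, adjusted p 0.5), with overlap. Without Yorkshire 3 this difference, Wannanhua minus Yorkshire, went from -2.38 to -0.828.

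**Figure D2:**
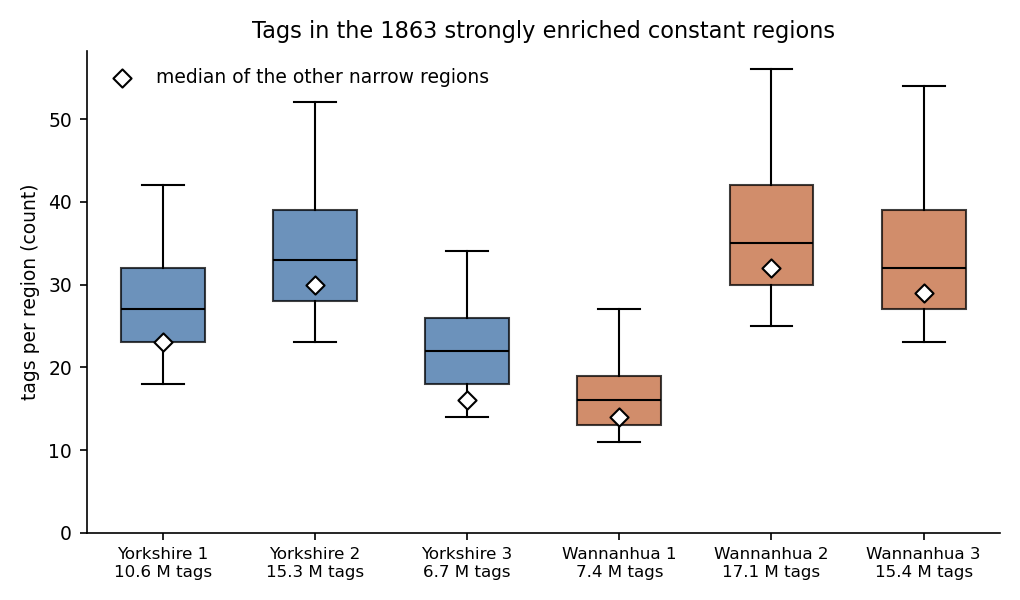
Tags per region (y axis, count) in the 1863 regions for each library (x axis, with filtered tags in units of 1000000), as boxes from the lower to the upper quartile with the median line and whiskers from the 5th to the 95th percentile. White diamonds mark the median of the 16840 other narrow regions, which lies below the median of the 1863 in every library (16 against 22 tags in Yorkshire 3, 14 against 16 in Wannanhua 1).

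Strong enrichment came with only slightly more tags. The median CPM of the 1863 regions was 1.17, 1.10 and 1.38 times that of the other narrow regions in Yorkshire 1, 2 and 3, and 1.14, 1.09 and 1.10 times in Wannanhua 1, 2 and 3. Per kb of called peak the ratio was 1.27, 1.20 and 1.35, and 1.20, 1.21 and 1.20. Together the regions held 0.495%, 0.425% and 0.630% of the filtered tags in Yorkshire 1, 2 and 3 and 0.437%, 0.412% and 0.417% in Wannanhua 1, 2 and 3. Yorkshire 3 had the highest value in each of these 3 comparisons.

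Among the 10 regions whose lowest ratio of fold to threshold was highest, several had much the same number of tags at every depth. Chromosome 1 from 268155758 to 268156640 led, with a fold at least 2.43 times the threshold in every library. It held 97, 100 and 100 tags in Yorkshire 1, 2 and 3 and 94, 114 and 107 in Wannanhua 1, 2 and 3, over a 2.54-fold range of filtered tags, and its 6 summits lay within 2 bp. Chromosome 1 from 65761890 to 65762277 came second, at 2.12 times the threshold. It held 57, 56 and 57 tags in the Yorkshire libraries and 51, 57 and 56 in the Wannanhua libraries, with summits within 5 bp. In neither region did a library stand far from the others in raw tags. Per filtered tag the shallowest library, Yorkshire 3, was the highest in both, at 14.9 and 8.47 CPM. Chromosome 1 from 71615665 to 71616144 held 35, 43 and 44 tags and 27, 41 and 42 tags, and had the highest fold of all 1863 regions in Yorkshire 3 (100.8). At chromosome 1 from 99080658 to 99081376 the tags were 40, 41 and 31, and 38, 39 and 42. A second region further along, from 99183329 to 99183949, held 65, 86 and 59 tags and 81, 59 and 96 tags.

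The remaining 5 of the 10 lay on chromosomes 1, 10 and 13. Chromosome 13 from 209259427 to 209260166 held 70, 74 and 68 tags in Yorkshire 1, 2 and 3 and 50, 56 and 67 in Wannanhua 1, 2 and 3. Chromosome 13 from 208917026 to 208917898 held 44, 52 and 43, and 38, 45 and 48, with all summits within 2 bp. Chromosome 13 from 77657262 to 77657980 held 59, 51 and 48 tags and 26, 38 and 37 (log2 difference -0.82, SE 0.31, edgeR adjusted p = 0.183). There every Yorkshire library was above every Wannanhua library in raw tags. In CPM the breeds overlapped, with 3.34 in Yorkshire 2 and 3.51 in Wannanhua 1. Only chromosome 1 from 226990816 to 226991418 (33, 41 and 24 tags, then 22, 41 and 44) and chromosome 10 from 33726760 to 33727462 (115, 123 and 85, then 156, 224 and 149) had a slope on depth, as defined next, above 0.214.

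How tags followed depth was measured as the slope of log2 tags on log2 filtered tags over the 6 libraries, where 1 means tags in proportion to depth and 0 means the same tags at any depth. The median slope was 0.173 in these 10 regions (range 0.0453 to 0.718), 0.704 in all 1863 and 0.845 in the other narrow regions. The slope is a description over 6 libraries. The caller kept at most 1 tag per position, per the file headers, and its part in these equal counts was not tested. The coefficient of variation (CV, the SD as a share of the mean) of raw tags was under 15% in 24 of the 1863 (1.29%), 5 of them among the 10 named, and in 0.398% of the other narrow regions. By slope the sets did not stand apart in this way: it was under 0.2 in 27 of the 1863 (1.45%) and in 1.47% of the others. In the strongest of 10 equal groups of the 1863, by the same ratio to threshold, the median slope was 0.686.

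**Figure D3:**
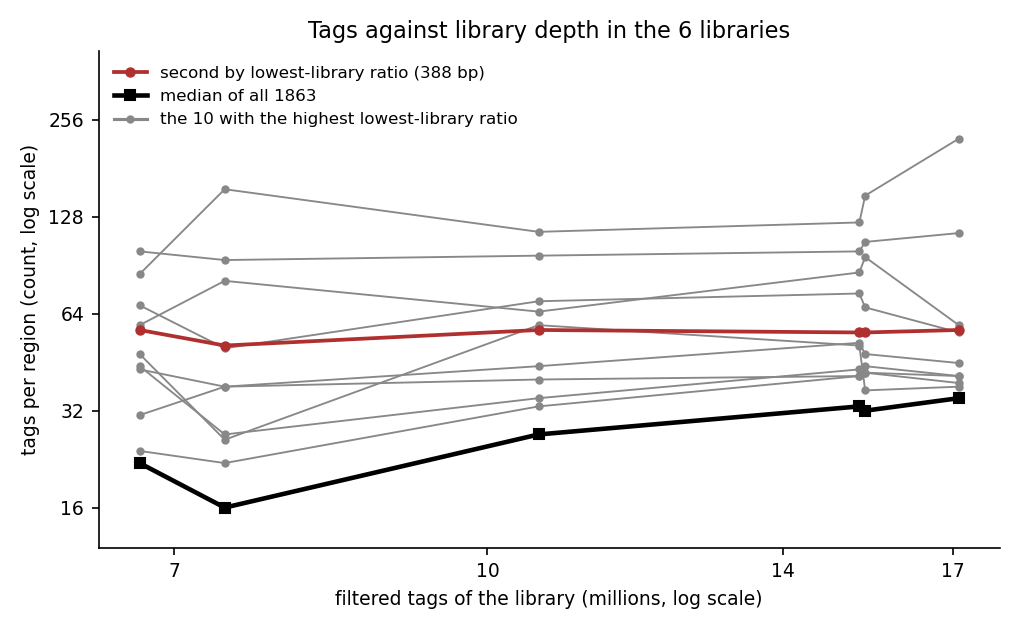
Tags per region (y axis, log scale) against the filtered tags of the 6 libraries (x axis, in units of 1000000, log scale). Grey lines are the 10 regions with the highest lowest-library ratio of fold to threshold, the red line is the second of them (51 to 57 tags in every library), and the black line is the median of all 1863 regions (16 to 35 tags).

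The spread between libraries depended on the scaling. The CV of CPM over the 6 libraries had a median of 24.7% (quartiles 19.1% and 31.3%) in the 1863 regions and 26.5% in the other narrow regions. Counting error alone would give a median of 19.9% and 21.4%. After TMM scaling, which fits 1 factor per library to the bulk of the regions, the medians were 19.7% and 24.3%, so that in the 1863 regions the spread was no longer above the counting value. The regions were chosen to have a high fold in every library, and the part of that choice in this spread was not tested. Within breeds the median CV of CPM was 24.6% over the Yorkshire libraries and 14.9% over the Wannanhua libraries, and the Yorkshire CV was the larger one in 1368 of the 1863 (73.4%), against 64.8% of the other narrow regions. After TMM scaling this was 59.6% and 60.8%. Without Yorkshire 3 the Yorkshire median was 14.5% over 2 libraries. The Yorkshire CV was then the larger one in 48.4% of the 1863 regions and 49.0% of the other narrow regions. After TMM scaling these shares were 44.6% and 47.7%. A CV over 2 libraries is not measured like one over 3, so these shares do not tell whether the breeds differ in spread. Between pairs of libraries log2 tags across the 1863 regions correlated at 0.343 to 0.636 (15 pairs), and across the other narrow regions at 0.337 to 0.831. These are correlations across regions, which share library and depth and are no replicates.

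At the even end, chromosome 13 from 7484051 to 7484845 had the lowest CV of CPM (5.19%), with 26, 34 and 15 tags in Yorkshire 1, 2 and 3 and 16, 40 and 33 in Wannanhua 1, 2 and 3. These tags follow depth in both breeds. The next 4 were all on chromosome 1, from 233037377 to 233038202 (CV 6.50%), from 230935236 to 230936113 (7.36%), from 245378064 to 245378873 (7.38%) and from 90923107 to 90923877 (7.59%). Counting error alone gives 17.9% to 20.5% at the tags of these 5, and they were picked as the lowest of 1863. At the uneven end, chromosome 13 from 179415124 to 179415719 had a CV of 69.4%, chromosome 11 from 73887058 to 73887689 one of 58.8%, and chromosome 1 from 226571451 to 226572120, from 189840212 to 189840779 and from 26190971 to 26191597 had 58.5%, 58.3% and 57.7%. In each of the last 3, Yorkshire 3 held the most tags of any library (44, 34 and 54) although it was the shallowest.

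Between the breeds, 1 of the 1863 regions passed the test of tags, with more in Yorkshire, and 0 passed with more in Wannanhua. The test was edgeR's quasi-likelihood test over all 19161 regions called in every library, at a Benjamini-Hochberg adjusted p of 0.05, and it called 0.151% of them higher in Yorkshire and 0.543% higher in Wannanhua (0.694% in all). At an unadjusted p under 0.05, 111 of the 1863 were higher in Yorkshire and 27 in Wannanhua, which are 5.96% and 1.45%, beside 6.60% and 9.41% of all regions tested. DESeq2 called 1 higher in Yorkshire and 2 in Wannanhua, and gave no adjusted p for 1637 of the 1863. Over the 3930 regions to which it gave an adjusted p, it called 20 and 515. Without Yorkshire 2, edgeR called 17 higher in Yorkshire and 9 in Wannanhua, beside 321 and 1543 of all 19161 regions. Without Yorkshire 1 or any 1 Wannanhua library it called 0 and 0 of the 1863. Over all regions these fits called 0 to 7 higher in Yorkshire and 1 to 46 higher in Wannanhua. The rule asked for a high fold in both breeds, so these calls describe a chosen set. The part of that choice in the number of calls was not tested.

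The region that passed was chromosome 11 from 73887058 to 73887689. It held 63, 75 and 45 tags in Yorkshire 1, 2 and 3 and 12, 39 and 26 in Wannanhua 1, 2 and 3, and every Yorkshire library was above every Wannanhua library even before scaling. Relative to the tags of all tested regions, TMM-scaled CPM was 107 ± 6.67 for Yorkshire and 38.1 ± 7.75 for Wannanhua (SD, n = 3). The log2 difference was -1.46 (SE 0.30, edgeR adjusted p = 0.0212). Called peaks there covered 539 bp on average in Yorkshire and 408 bp in Wannanhua, and the fold was 42.8, 39.2 and 57.7, then 23.5, 29.1 and 20.1. The call was lost without Yorkshire 1 or any 1 Wannanhua library (edgeR adjusted p = 0.120 without Yorkshire 1, and 0.1003, 0.119 and 0.188 without Wannanhua 1, 2 and 3), while the log2 difference stayed between -1.65 and -1.38. It was also lost with fragment length as a covariate (-1.39, adjusted p 0.220) and with called length as an offset (-1.09, adjusted p 0.181).

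Next in Yorkshire came 2 regions of chromosome 13 that did not pass. From 179415124 to 179415719 there were 41, 39 and 47 tags in Yorkshire and 11, 23 and 33 in Wannanhua. The log2 difference was -1.16 (SE 0.30, edgeR adjusted p = 0.0546). The region passed with scaling by filtered tags alone (0.0116), with called length as an offset (2.8e-05) and without Yorkshire 2 (0.00323). It also passed with replicate number as a block (0.0198) and with 1 peak per library (0.0356). It did not pass with a stricter tag filter (0.0525), without Yorkshire 1 (0.204) or without Wannanhua 1, 2 or 3 (0.141, 0.303 and 0.136). Without Yorkshire 3 the difference was -0.82 (adjusted p 0.182), and with fragment length as a covariate it was -0.42 (adjusted p 0.916). From 32925423 to 32926008 there were 24, 43 and 28 tags, then 11, 26 and 22 (log2 fold change -0.86, edgeR adjusted p = 0.0923). Towards Wannanhua, the 3 regions with the lowest p did not pass either. Chromosome 1 from 226284650 to 226285418 held 16, 22 and 15 tags in Yorkshire and 30, 39 and 42 in Wannanhua, with no overlap between the breeds (log2 difference 0.91, SE 0.27, edgeR adjusted p = 0.0899). The region of that chromosome from 226428202 to 226428860 held 20, 25 and 18, then 18, 56 and 62 (0.89, edgeR adjusted p 0.0988). Wannanhua 1, a shallow library, was as low there as the Yorkshire libraries in raw tags. In TMM-scaled CPM the Wannanhua libraries had 48.8, 67.4 and 82.9, all above the Yorkshire libraries at 35.6, 33.2 and 43.9. Chromosome 13 from 52119821 to 52120443 held 16, 19 and 11, then 13, 36 and 47 (0.87, adjusted p 0.0993). With called length as an offset these 3 differences were 0.24, 0.15 and 0.08.

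As a set the regions leaned slightly towards Yorkshire and spread little. On the log2 scale, Wannanhua over Yorkshire had a median of -0.14 in the 1863 regions and -0.04 in all 19161, with 1302 of the 1863 (69.9%) below 0. Scaling by filtered tags moved the median of all regions by -0.13, to -0.16, and that of the 1863 to -0.27, so that the gap between the sets was -0.0984 and -0.105. With called length as an offset the medians were -0.46 in the 1863 and -0.37 in all. The span from the 5th to the 95th percentile was -0.54 to 0.36 in the 1863 and -0.59 to 0.85 in the other 17298 regions called in all libraries. Only 2 of the 1863 (0.107%) had a log2 difference beyond 1 in either direction, against 547 of the others (3.16%). The rule asked for a high fold in every library of both breeds, which the other regions did not have to meet. The part of that choice in the small spread was not tested. In TMM-scaled tags all Yorkshire libraries lay above all Wannanhua libraries in 274 of the 1863 (14.7%, background 10.5%), and the opposite held in 65 (3.489%, background 11.4%). Scaled by filtered tags alone the counts were 389 (20.9%) and 27 (1.45%), beside 15.01% and 8.30% of the other narrow regions.

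This lean was smaller without Yorkshire 3 and larger without Yorkshire 2. Relative to all regions the median was -0.0984 with all libraries, -0.0554 without Yorkshire 3 and -0.162 without Yorkshire 2. The cause was not tested. Yorkshire 3 had the highest TMM-scaled tags of the 6 in 42.9% of the 1863 regions, against 24.4% of the other narrow regions. Without it the median of the 1863 was -0.06, all Yorkshire libraries were above all Wannanhua libraries in 336 regions (18.0%, against 14.8% of all), and the opposite held in 152 (8.16%, against 14.6%). With fragment length as a covariate, which was tried only once the values were known, the median of the 1863 turned to 0.04 and that of all regions was -0.02. Fragment length was longer in every Wannanhua library than in every Yorkshire library, so its part and that of breed cannot be told apart.

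**Figure D4:**
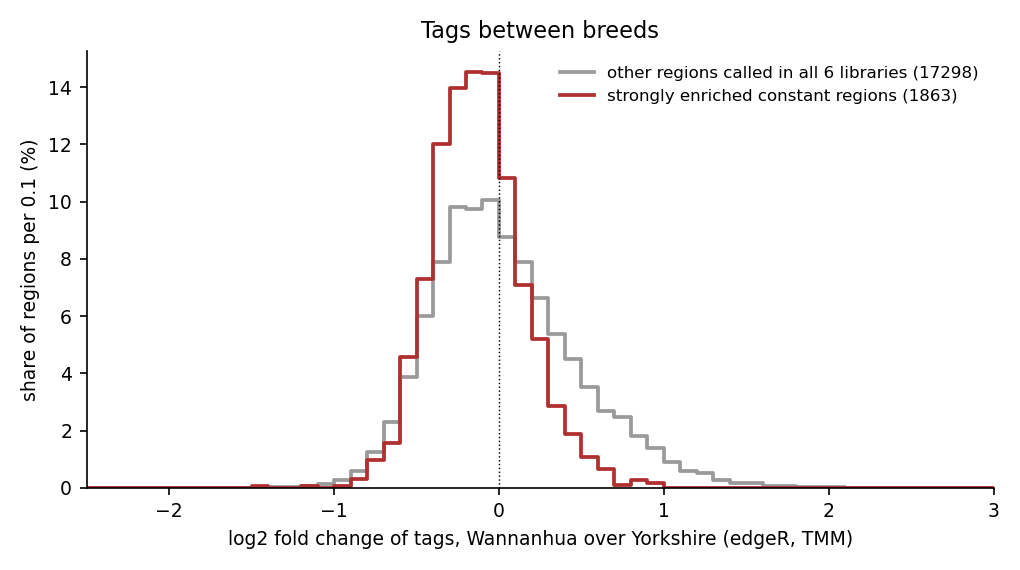
Share of regions (y axis, percent per 0.1) by log2 fold change of tags, Wannanhua over Yorkshire (x axis, edgeR with TMM scaling). The 1863 strongly enriched constant regions (red) centre at -0.14 and run from -0.54 to 0.36 between the 5th and 95th percentile, while the 17298 other regions called in all 6 libraries (grey) reach 0.85 at the upper side. Only the red set was chosen for a high fold in every library of both breeds.

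By position, most of the regions lay on the large chromosomes and away from their ends. Chromosomes 1 and 13 held 880 and 646 of them, together 81.9%, where they held 65.8% of the narrow regions. Of all narrow regions, 12.1% on chromosome 1 and 12.9% on chromosome 13 met the rule, against 7.40% on chromosome 11, 5.13% on chromosome 10 and 3.03% on chromosome 12. Chromosome 12 had the most merged regions per Mb (180) and the fewest of the strong constant ones (0.928 per Mb, 59 in all), and chromosome 13 had the fewest merged regions (96.4 per Mb) and the most strong constant ones (2.95 per Mb). The order of the 5 chromosomes by merged regions per Mb was the reverse of that by strong constant regions per Mb.

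Within 20 Mb of a chromosome end there were 220 of the 1863 regions (11.8%), against 28.9% of all narrow regions and 36.7% of all merged regions. The end of a chromosome was taken as its first base or its last peak. The share of narrow regions that met the rule was 2.70% within 5 Mb of an end, 3.59% from 5 to 10 Mb, 4.86% from 10 to 20 Mb, 9.02% from 20 to 40 Mb, 15.004% from 40 to 80 Mb and 13.6% beyond 80 Mb. The difference held on each chromosome: the share in the end zones and inside was 3.90% and 13.3% on chromosome 1, 2.87% and 7.36% on chromosome 10, 3.73% and 12.1% on chromosome 11, 2.34% and 4.24% on chromosome 12, and 8.81% and 13.7% on chromosome 13. On chromosome 12 the end zones take in 62.9% of the length.

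Crowding by other peaks moved with these positions only in part. Narrow regions had a median of 3 other merged regions within 10 kb at each distance up to 40 Mb from an end, and of 2 beyond. The strong constant regions had a mean of 1.38 other merged regions within 10 kb, against 2.59 for the other narrow regions, and 464 of them (24.9%) had none, against 9.36%. The nearest other region lay at a median of 5456 bp, against 2445 bp. Of narrow regions with 0, 1, 2, 3, 4 and 5 others within 10 kb, 22.7%, 17.9%, 10.2%, 5.70%, 2.41% and 1.13% met the rule, and 5 of the 658 (0.760%) with 6 or more did. The caller takes its local background from 10000 bp around a peak, per the file headers, so a neighbouring peak can enter the denominator of the fold that the rule uses. The part of this in the counts by position was not tested. Split by the number of neighbours, the shares near the ends and inside were 19.6% and 23.1% of regions without a neighbour, 12.01% and 19.03% with 1 neighbour, 4.81% and 12.02% with 2, and 1.48% and 4.93% with 3 or more. With 0 or 1 neighbour, 19.7%, 14.9%, 19.8%, 12.1% and 21.3% met the rule on chromosomes 1, 10, 11, 12 and 13. With 2 or more the shares were 7.67%, 3.08%, 3.57%, 1.91% and 7.68%.

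**Figure D5:**
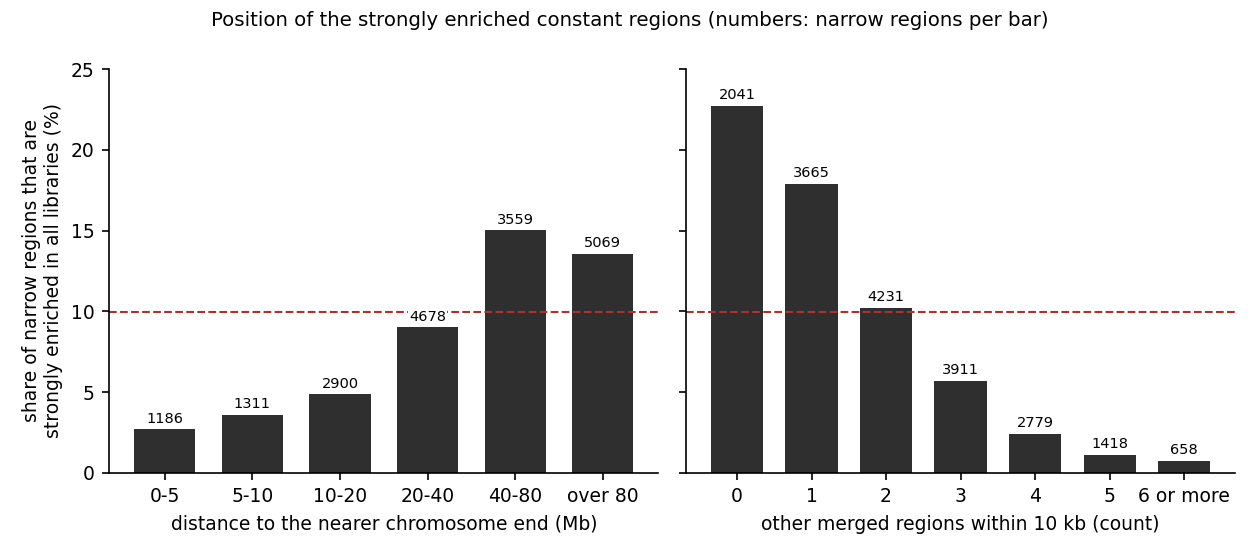
Share of narrow regions that are strongly enriched in all 6 libraries (y axis, percent) by distance to the nearer chromosome end (left, Mb) and by the number of other merged regions within 10 kb (right). The dashed line is the share over all narrow regions, 9.96%, numbers above bars are narrow regions, and the share goes from 2.70% to 15.004% on the left and from 22.7% to 0.760% on the right.

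The regions were spread along all 5 chromosomes. Neighbouring ones were 219 kb apart on the median (quartiles 93.6 and 479 kb), and the shortest gap was 4.33 kb, where the narrow regions as a whole, being far more numerous, had a median gap of 23.2 kb. By chromosome the median gap was 211 kb on chromosome 1, 202 kb on chromosome 13, 247 kb on chromosome 11, 291 kb on chromosome 10 and 491 kb on chromosome 12. At least 1 strong constant region lay in 615 of 767 windows of 1 Mb, with a median of 2 and at most 11 per window. The window with 11 was chromosome 1 from 226000001 to 227000000, where 27 narrow regions lay (40.7% met the rule). It holds 4 of the regions named above: the 2 of chromosome 1 among the lowest p towards Wannanhua, 1 of the 10 with the highest ratio to threshold, and 1 of the 5 most uneven. Chromosome 1 from 25000001 to 26000000 and from 251000001 to 252000000 held 10 each. Over 5 Mb the densest stretch was chromosome 13 from 110000001 to 115000000, with 30 of 85 narrow regions.

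Long stretches had none. The longest was chromosome 10 from 66928209 to 76329825, 9.40 Mb with 246 narrow regions of which none met the rule, followed by chromosome 1 from 300247982 to 308952015 (8.70 Mb, 206 narrow regions) and chromosome 10 from 7805057 to 14688592 (6.88 Mb, 214). Further gaps were chromosome 12 from 21990521 to 28298536 (6.31 Mb) and chromosome 11 from 73982542 to 79040533 (5.06 Mb). The most isolated region, counted by its nearest other strong constant region, was chromosome 12 from 58346598 to 58347164, at 3756 kb. It held 27, 37 and 29 tags in Yorkshire and 14, 25 and 28 in Wannanhua. On chromosome 10 it was from 66927623 to 66928208 (2173 kb), on chromosome 1 from 315225030 to 315225636 (2050 kb), on chromosome 13 from 211339140 to 211339669 (1673 kb) and on chromosome 11 from 83065696 to 83066653 (1539 kb). The last of these held 51, 80 and 44 tags, then 54, 94 and 83. The one on chromosome 1 lay within 0.0228 Mb of the last peak of that chromosome.

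Close groups were few. Only 39 of the 1858 gaps between neighbours (2.10%) were 10 kb or shorter, and 75 regions (4.03%) stood in 36 groups joined by such gaps, of which 33 were pairs and 3 had 3 regions. Of the 562 narrow regions whose next narrow region within 10 kb was a strong constant one, 73 were strong themselves (12.99%), beside 9.96% of all. The 3 larger groups spanned similar lengths. The first was on chromosome 13 from 14279788 to 14297839 (18052 bp). Its 3 regions held 23, 38 and 26 tags in Yorkshire 1 and 16, 15 and 17 in Wannanhua 1. The second was on chromosome 1 from 72680371 to 72698655 (18285 bp), with 53, 27 and 36 tags in Yorkshire 2 and 45, 35 and 46 in Wannanhua 2. On chromosome 11 the third ran from 62094571 to 62113337 (18767 bp), with 28, 24 and 24 tags in Yorkshire 3 and 29, 25 and 29 in Wannanhua 3. The pairs with the shortest span were chromosome 1 from 122345976 to 122351752 (4578 bp apart) and chromosome 13 from 197139922 to 197145832 (4589 bp apart), each with no other merged region between.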

How the data were processed

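MeDIP-seq peak lists of 6 libraries, 3 per breed as labelled, were used. Per the file headers the authors called peaks per library with MACS (5 of the 6 headers name 1.4.2), without control, at a p cutoff of 1e-05 with at most 1 tag per position. The deposited tags of a peak are a raw count, its fold enrichment is a ratio to the local background, and its score, under a broken heading, was used only for a stricter cutoff at 100. Starts, ends, lengths and summits are in bp. The sources used here name neither aligner nor build. Depth limits a region of 16 tags to a counting error of 25%. Lists stop part-way through later chromosomes, so only the 5 complete ones were compared.

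Regions were merged, chosen and described with Python 3.11.15, numpy 2.4.6, pandas 2.3.3 and scipy 1.17.1, and drawn with matplotlib 3.10.9. Tags summed over a library's peaks in a region were tested on all 19161 regions with edgeR 4.0.16 in R 4.3.3 (robust quasi-likelihood, TMM, filterByExpr, Benjamini-Hochberg), and with DESeq2 1.42.0 as an alternative. The edgeR fit was tested on simulated data. Library medians were compared by exact permutation. Named regions are the 10 highest by lowest-library ratio of fold to threshold, those nearest the threshold, the lowest p per direction, the lowest and highest CV, the largest groups, the most isolated, and the narrowest and widest. The members and all rules were chosen with earlier results of these data known. The slope on depth, the fold steps, the shares and spread without Yorkshire 3 and crowding by zone and chromosome were added after values were seen.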

Additional observations from a re-analysis of the deposited data

Results flagged for a closer look

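Chromosome 14 is outside the comparisons because the lists stop at different points on it. Over the first 38.3 Mb, which all 6 lists reach, 75 of 1098 narrow regions (6.83%) met the same rule with the same thresholds, at 1.96 per Mb and a median width of 685 bp. The share over the 5 complete chromosomes was 9.96%. This stretch includes 1 chromosome end.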

How the results depend on the processing

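The number of regions that met the rule changed with the settings. Against 1863, 4007 met it at the 70th and 484 at the 90th percentile, 818 with reciprocal 50% overlap, 350 with peaks scoring at least 100, and 2016 to 2929 with 1 library left out (2929 without Wannanhua 1). Position was recomputed only at the 90th percentile, for another end zone and with 1 library left out. The share on chromosomes 1 and 13 was 82.9% at the 90th percentile and 81.3% to 81.8% with 1 library left out. End zones held 9.71% at the 90th percentile, 4.24% when they were 10 Mb deep, and 12.2% to 12.6% with 1 library left out. The median gap was 867 kb at the 90th percentile and 139 to 206 kb with 1 library left out, and the median span of summits was 45 to 55 bp. At the 90th percentile 27.2% of regions found in Yorkshire and 35.0% of those found in Wannanhua reached the threshold in the whole other breed.

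Regions called higher in Wannanhua numbered 2 with DESeq2, 1 with reciprocal overlap and 0 to 9 with 1 library left out (9 without Yorkshire 2). Over all regions tested the same settings called 515 of 3930, 68 of 5921 and 1 to 1543. Called higher in Yorkshire were 3 with filtered tags as library size, 3 with called length as offset and 2 with 1 peak per library. There were 0 with reciprocal overlap, 0 with fragment length as a covariate, and 0 to 17 with 1 library left out (17 without Yorkshire 2). Over all regions tested these settings called, in the same order, 96 and 9 of 19161, 35 of 17313, 20 of 5921, 4 of 19161, and 0 to 321. The median log2 fold change relative to all regions was -0.0984, and became -0.0188 with reciprocal overlap, 0.0589 with fragment length as a covariate, and -0.162 to -0.0554 with 1 library left out (-0.162 without Yorkshire 2, -0.0554 without Yorkshire 3). The breed difference in median tags per library (0.333) ran from -3.33 to 6.17 and that in summit distance (-1.67 bp) from -3.25 to 1.25 bp with 1 library left out. The cause of these changes was not tested. Replicate numbers are shared by the breeds. Deviations of same-numbered libraries from their breed's mean correlated across regions at r = -0.01, 0.03 and -0.05 for numbers 1, 2 and 3. Other pairs gave r from -0.08 to 0.08. Such correlations cannot show whether same-numbered libraries shared a batch, and the main test left the numbers out. With the replicate block 2 of the 1863 regions were called higher in Yorkshire and 0 in Wannanhua, beside 48 and 225 of all 19161.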

Other observations

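Ranked by the lowest ratio of fold to threshold and divided into 10 equal groups, the strong constant regions changed little in width (medians 673 to 734 bp). In the strongest group the summits spanned a median of 49 bp and in the weakest 61 bp. Median tags went from 24 to 32 in Yorkshire 1 and from 13 to 20 in Wannanhua 1 between the same groups. End zones held 6.42% of the strongest group, 9.09% of the weakest and up to 15.1% of those between, with no steady trend. The rule used the fold, so these are descriptions.

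Picked after their values were seen, 8 regions held 100 tags or more in at least 1 library. The most tags lay on chromosome 13 from 87436222 to 87437045: Yorkshire 1, 2 and 3 counted 225, 274 and 201 there and Wannanhua 1, 2 and 3 counted 109, 254 and 156, over 503 to 824 bp of called peak. Its breed difference did not pass (log2 difference -0.63, SE 0.44, edgeR adjusted p = 0.489). Chromosome 1 from 48709029 to 48709649 held 100, 155 and 131, then 141, 253 and 168, and these 2 were the ones with at least 100 tags in all 6 libraries. Chromosome 10 from 22941257 to 22942416 held 129, 140 and 45, then 87, 159 and 117.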
